A study of Mus musculus with 29 samples.

Results

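Nicotinic acetylcholine receptor subunits were examined in tumours and bone marrow of mice carrying the TH-MYCN transgene. The members were 7 genes, Chrna1, Chrna3, Chrna4, Chrna5, Chrna7, Chrnb2 and Chrnb4, of 18193 genes measured. They were found as every probe set that the platform annotation maps to exactly 1 of these symbols, which gave 16 of 45037 probe sets, and each gene was represented by its probe set of highest mean signal. The rule that mapped probe sets to members used no measured value, but the members were chosen with earlier results of these data known. The choice of probe set used the mean over all 29 samples, 24 of them tumours, so it leans to probe sets high in tumours. In marrow alone another probe set had the higher mean for Chrna7 (3.83 against 3.24) and for Chrnb2 (4.46 against 4.32).

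The study surveyed gene expression by microarray in 24 primary abdominal neuroblastomas and 5 total bone marrow samples. The TH-MYCN transgene, in which the tyrosine hydroxylase promoter drives MYCN in sympathoadrenal cells, was carried by all 4 groups, so no comparison here is against a mouse without it. The groups were 7 tumours with wild type caspase-8, 17 tumours with caspase-8 deficiency, 2 marrow samples with wild type caspase-8 and 3 marrow samples with caspase-8 deficiency, all on strain 129X1/SvJ. The labels used here give neither the ages of the mice nor the promoter or cell type in which caspase-8 was deleted. They also do not say whether samples came from separate mice, so every p-value reflects only how these samples spread, part of which may be technical.

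Nicotinic receptors are ligand-gated cation channels assembled as pentamers around a central pore and opened by acetylcholine. In sympathetic ganglia and adrenal chromaffin cells, receptors built from the alpha3 and beta4 subunits, often with alpha5, carry fast transmission. The alpha7 subunit can form a receptor alone, alpha4 and beta2 together form the main high-affinity receptor of the brain, and alpha1 belongs to the receptor of the skeletal muscle endplate.

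The sequences just upstream of 4 members are shown because these members carry the results: Chrna3, Chrna7 and Chrnb2 differed most between tumours and marrow, and Chrna1 is the muscle subunit. Each run holds the 250 bases before the annotated start of the gene, 5′ to 3′ on the gene's own strand, from RefSeq on GRCm38.p6. Capitals mark matches to CANNTG, the E-box that MYC-family and myogenic factors can bind, which reads as CANNTG on both strands, and to GGGCGG on either strand, a GC box.
Chrna3, chr9:55026563-55026812, minus strand: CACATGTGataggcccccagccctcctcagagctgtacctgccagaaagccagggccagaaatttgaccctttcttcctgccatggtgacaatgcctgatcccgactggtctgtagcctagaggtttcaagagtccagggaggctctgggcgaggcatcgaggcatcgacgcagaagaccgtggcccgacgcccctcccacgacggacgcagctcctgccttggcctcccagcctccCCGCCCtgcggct
Chrna7, chr7:63212527-63212776, minus strand: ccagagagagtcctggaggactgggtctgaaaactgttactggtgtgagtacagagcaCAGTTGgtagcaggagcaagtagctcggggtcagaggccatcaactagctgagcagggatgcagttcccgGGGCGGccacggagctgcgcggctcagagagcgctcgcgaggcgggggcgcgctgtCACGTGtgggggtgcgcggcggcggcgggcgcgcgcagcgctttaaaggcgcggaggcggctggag
Chrnb2, chr3:89764633-89764882, minus strand: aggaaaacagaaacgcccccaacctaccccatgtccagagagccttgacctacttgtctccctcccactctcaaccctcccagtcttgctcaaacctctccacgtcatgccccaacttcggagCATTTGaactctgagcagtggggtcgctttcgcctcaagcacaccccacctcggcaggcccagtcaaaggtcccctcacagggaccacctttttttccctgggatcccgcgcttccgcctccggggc
Chrna1, chr2:73580339-73580588, minus strand: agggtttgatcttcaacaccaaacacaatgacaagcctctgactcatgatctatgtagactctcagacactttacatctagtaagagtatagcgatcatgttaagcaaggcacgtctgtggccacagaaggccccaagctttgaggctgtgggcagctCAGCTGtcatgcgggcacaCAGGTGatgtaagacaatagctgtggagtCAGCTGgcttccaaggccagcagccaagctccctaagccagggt
The Chrna7 window held 2 matches to CANNTG, and 1 of them was CACGTG, the E-box form that MYC-family dimers prefer. Across 32851 promoters of the same length, 6.02% held CACGTG, 66.2% held CANNTG and 32.7% held GGGCGG. The Chrna3 window held 2 CANNTG matches that overlap each other and 1 GGGCGG, the Chrnb2 window 1 CANNTG, and the Chrna1 window 3 CANNTG. These are matches of letters in a window and not measured binding sites.

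The tissue labels were borne out by tissue markers, whereas Casp8 itself did not separate the genotypes in tumours. Casp8, the gene named in the genotype labels, had its lowest value, median and highest value at 5.23, 5.65 and 6.91 on the log2 scale in the 7 wild type tumours and at 4.68, 5.70 and 6.41 in the 17 deficient tumours. It read 9.30 to 9.62 in wild type and 9.01 to 9.24 in deficient marrow. The differences, -0.26 and -0.32, were not called (limma adjusted p = 0.9997 and 0.9996). Whether its 1 probe set lies in the deleted part of the gene is not known from the labels, so these values do not check the genotype labels. The mean of 12 sympathoadrenal markers was 9.44 to 10.5 in tumours and 4.24 to 4.38 in marrow, and that of 8 granulocyte markers was 12.3 to 12.7 in marrow and 3.73 to 5.58 in tumours. Pairwise array correlations were 0.97 to 0.99 among tumours and 0.96 to 0.99 among marrow samples. The labels number the tumours in their titles, and 10 tumours (3 wild type, 7 deficient) have numbers below 100, while 14 tumours (4 wild type, 10 deficient) and all 5 marrow samples have numbers of 100 or more. What the numbering stands for is not given in the labels, and it was treated as a possible batch. All values are log2 RMA expression values. As a guide to low signal, 25% of all values in the table lay below 3.39. Levels of different probe sets were not set against each other.

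Chrna3, Chrna7 and Chrnb2 were strongly higher in tumours than in marrow, whereas the other 4 subunits read 4.54 or lower in every sample of both tissues. Chrna3, which encodes the alpha3 subunit of ganglionic receptors, was 7.56-fold higher in tumours, Chrna7 8.24-fold and Chrnb2 5.68-fold. These are folds of RMA signal. Marrow Chrna7 (2.92 to 3.60) lay around the low-signal guide of 3.39, and marrow Chrna3 (3.28 to 4.33) lay mostly above it. No detection call was used, so the true fold of transcript may be larger. For Chrna7 and Chrnb2 the fold rests on 1 probe set each, and their other probe sets did not rise (log2 differences of -0.41 to -0.12). In all 3 genes the lowest tumour lay above the highest marrow sample. How many of all genes separate the tissues in this way was not counted, while 76.4% of all genes were called between them. Chrna5 and Chrnb4, the usual partners of Chrna3 in ganglionic receptors, showed no such rise. Their probe sets read low in both tissues. A Chrna7 probe set that did not rise was also low in tumours (3.37 to 4.14), although the other Chrna7 probe set rose. For Chrna5 and Chrnb4, a low transcript level and an unresponsive probe set therefore cannot be told apart.

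Chrna3 in the 7 wild type tumours had its lowest value at 5.81, its median at 6.95 and its highest at 7.26, and in the 17 deficient tumours at 6.29, 7.02 and 7.55. The wild type marrow samples read 4.33 and 3.74, and the deficient marrow samples read 4.33, 3.28 and 3.80. Tumours and marrow did not overlap, and the tumours minus marrow difference was 2.92 on the log2 scale (SE 0.20, limma adjusted p = 5.82e-14), with a 95% interval of the fold from 5.71 to 10.02. In a bulk sample, fewer cells of a type and less RNA per cell cannot be told apart, which holds for each tissue difference given here.

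Chrna7, whose product forms receptors of high calcium permeability, ran from 5.62 through a median of 6.18 to 6.69 in wild type tumours, and from 5.51 through 6.33 to 7.15 in deficient tumours. Both wild type marrow samples read 2.92, and the deficient ones read 3.54, 3.22 and 3.60. The tissues were again fully apart, by 3.04 on the log2 scale (SE 0.22, limma adjusted p = 3.08e-13, fold interval 6.01 to 11.3).

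Chrnb2, the beta2 subunit that pairs with alpha4 or alpha3, ran from 6.35 through 6.79 to 7.26 in wild type tumours and from 6.39 through 6.81 to 7.47 in deficient tumours. Marrow read 4.02 and 4.70 in the wild type samples and 4.33, 4.44 and 4.13 in the deficient ones. The difference was 2.50 on the log2 scale (SE 0.15, limma adjusted p = 1.82e-15, fold interval 4.61 to 6.99).

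**Figure D1:**
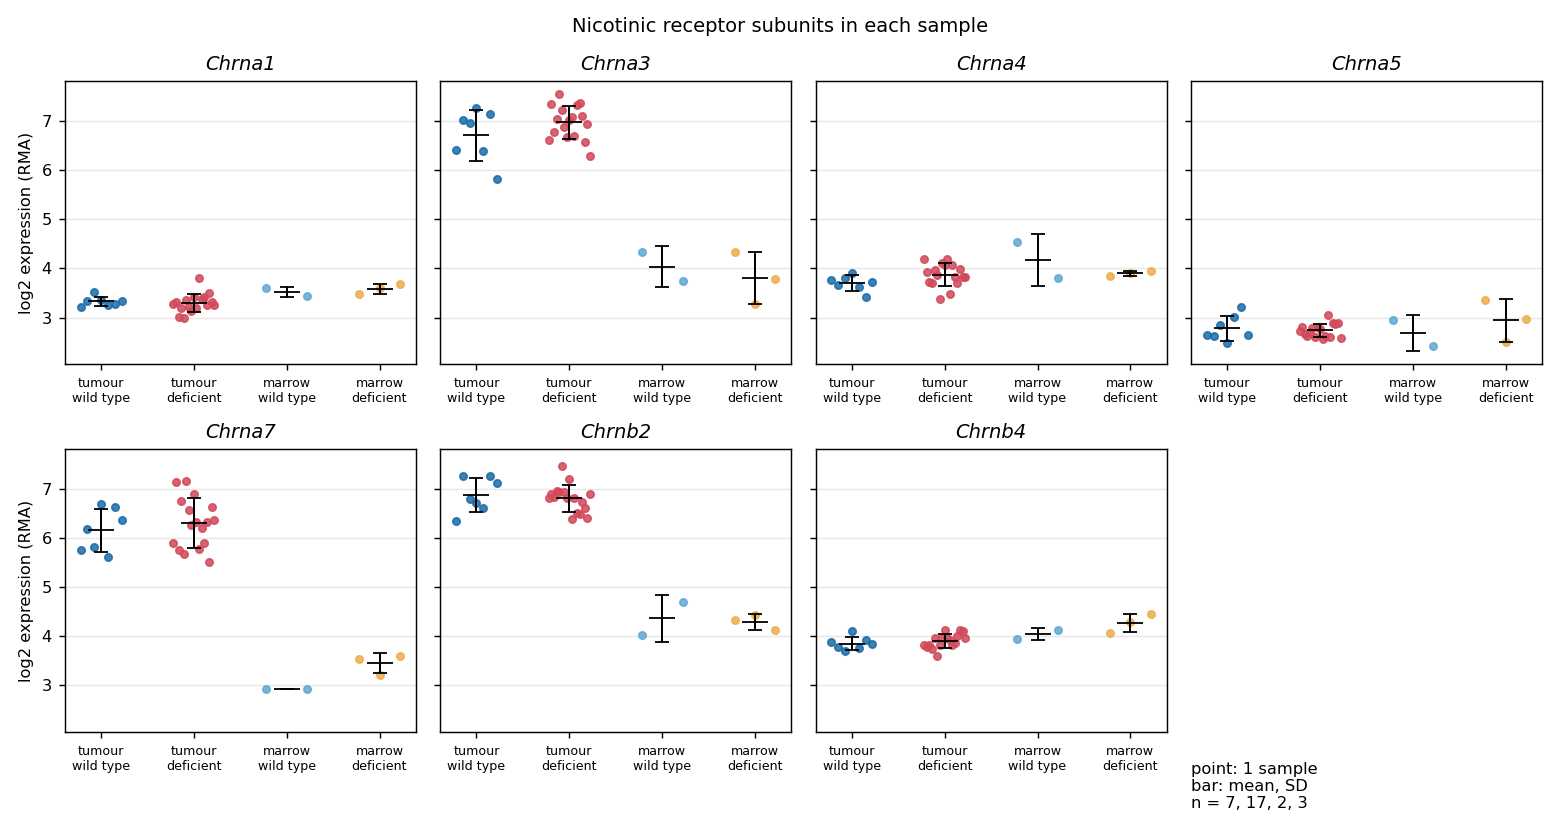
Log2 RMA expression (vertical axis) of each subunit in each sample, by tissue and caspase-8 genotype. Points are samples and bars the mean and SD of 7, 17, 2 and 3 samples. For Chrna3, Chrna7 and Chrnb2 every tumour lies above every marrow sample, the lowest tumours being at 5.81, 5.51 and 6.35 and the highest marrow samples at 4.33, 3.60 and 4.70.

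Of the 7 members, 6 passed the test between tissues, 3 higher and 3 lower in tumours. In the same comparison 76.4% of all genes were called, 34.2% higher and 42.2% lower, so the members' count lies near the background. Of all calls 44.7% were higher, against 30.8% with each array centred on its median. The 3 rises lay at percentiles 95.8 (Chrna3), 96.2 (Chrna7) and 94.7 (Chrnb2) of the signed differences of all genes, whose median was -0.10. The median over the 7 members was -0.05.

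The 3 members called lower were Chrnb4, Chrna1 and Chrna4, by small amounts. Chrnb4, the beta4 subunit, read 3.60 to 4.13 in tumours and 3.95 to 4.45 in marrow, a difference of -0.28 (SE 0.08, limma adjusted p = 0.002). Chrna1 read 2.99 to 3.80 in tumours and 3.45 to 3.68 in marrow, a difference of -0.24 (SE 0.08, adjusted p = 0.011). Chrna4 read 3.38 to 4.20 in tumours and 3.80 to 4.54 in marrow, a difference of -0.25 (SE 0.11, adjusted p = 0.048). The tissues overlapped in all 3 genes. None of these 3 calls held when the arrays were quantile normalized again: the differences became -0.11, -0.02 and -0.07. Without wild type marrow replicate 1 the Chrna1 call was lost (-0.20, adjusted p = 0.080) and Chrna4 came to -0.06 (adjusted p = 0.669). The Chrna4 call was lost in 18 of the 29 fits that left out 1 sample, each of 4 marrow samples and 14 tumours.

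Chrna5, the alpha5 accessory subunit, was not called between tissues. It read 2.48 to 3.22 in tumours and 2.42 to 3.37 in marrow, and its difference was -0.05 with a 95% interval of -0.28 to 0.17.

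The 3 rises differed in how far they were carried by more than 1 probe set. All 3 Chrna3 probe sets were called higher in tumours, at 2.92, 2.46 and 0.98 on the log2 scale, and across the 24 tumours they correlated with one another at r = 0.64 to 0.91. The Chrna7 probe sets correlated at 0.20, and the Chrnb2 probe set that rose correlated with its other 2 at -0.24 and 0.02. The values across tumours given for Chrna7 and Chrnb2 therefore each rest on 1 probe set. Of the Chrna7 probe sets, 1 rose by 3.04 and the other, at 3.37 to 4.14 in tumours and 3.48 to 4.19 in marrow, differed by -0.19 (limma adjusted p = 0.107). Of the 3 Chrnb2 probe sets, 1 rose by 2.50, 1 was called lower at -0.41 (adjusted p = 0.0016) and 1 differed by -0.12 (adjusted p = 0.315). With the mean over all probe sets of a gene, the Chrna7 difference was 1.43 and the Chrnb2 difference 0.66, both still called higher, against 2.12 for Chrna3.

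Of the 8 probe sets of the other 4 subunits, 7 gave a difference below 0 and 1, a Chrnb4 probe set, a difference above 0. The 2 Chrnb4 probe sets differed in sign, -0.28 and 0.20 (adjusted p = 0.053 for the latter), the 3 Chrna4 probe sets gave -0.27, -0.25 and -0.06, and the 2 Chrna5 probe sets gave -0.05 and -0.16. In the fit over all probe sets, 9 of the 16 were called, 5 higher and 4 lower, against 70.3% of all probe sets (29.6% higher and 40.8% lower).

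**Figure D2:**
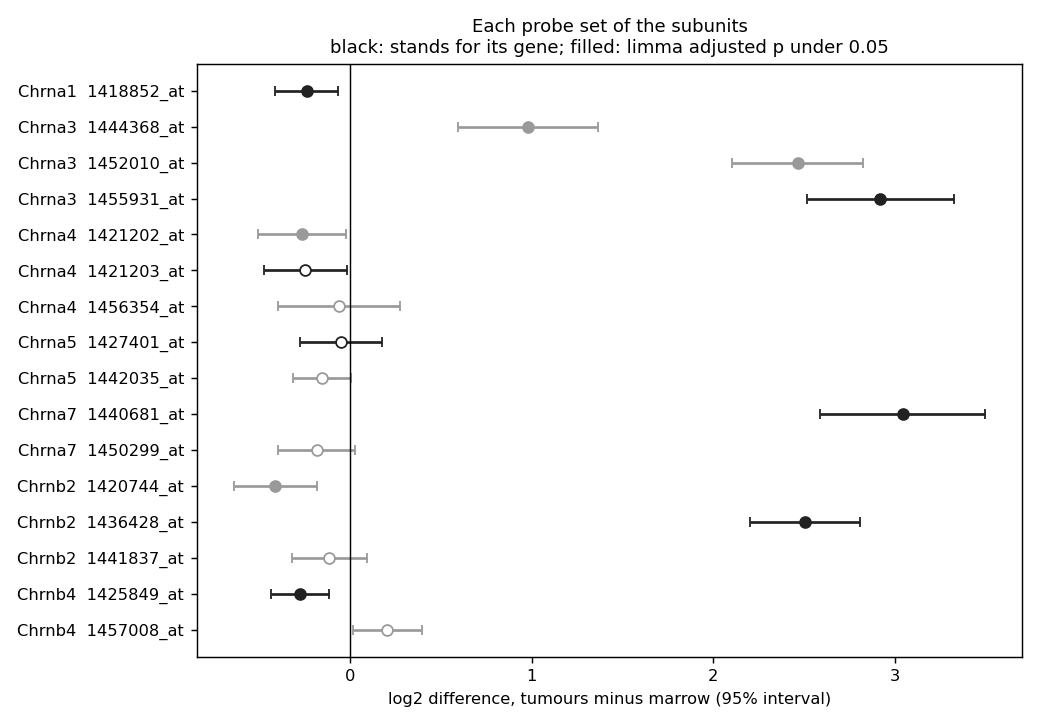
Log2 difference, tumours minus marrow (horizontal axis), with its 95% interval for each of the 16 probe sets. Filled points passed an adjusted p of 0.05 over all probe sets, and black marks the probe set that stands for its gene. The 3 Chrna3 probe sets lie at 0.98, 2.46 and 2.92, while Chrna7 and Chrnb2 each have 1 probe set at 3.04 and 2.50 and the others below 0.

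No subunit was called between caspase-8 genotypes in tumours. Deficient minus wild type over all 24 tumours, the largest differences were 0.26 for Chrna3 (SE 0.17), 0.17 for Chrna4 (SE 0.09) and 0.15 for Chrna7 (SE 0.21). Chrna5 differed by -0.04, Chrnb2 by -0.06, Chrna1 by -0.03 and Chrnb4 by 0.05. Every member had a limma adjusted p of 0.9997. No gene at all was called in this comparison (0% of 18193, with 583 at an unadjusted p under 0.05), and none of the 7 members was among those 583. The 95% intervals allow a Chrna3 difference from -0.09 to 0.61, a Chrna7 difference from -0.28 to 0.57 and a Chrnb2 difference from -0.33 to 0.20.

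The direction of some of these small differences was not shared by the title number ranges. Chrna7 differed by 0.50 (SE 0.34) among the lower-numbered tumours and by -0.11 (SE 0.23) among the higher-numbered ones. Chrnb2 differed by 0.18 (SE 0.19) and -0.24 (SE 0.15), and Chrna1 by -0.17 (SE 0.10) and 0.06 (SE 0.10), in the same order. Chrna3 differed by 0.27 (SE 0.21) and 0.26 (SE 0.24). None of these was called, and the difference between the ranges was not tested.

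In marrow, with 2 samples against 3, none of the 7 members was called, against 0.022% of all genes. Chrna7 alone passed an unadjusted p of 0.05: both wild type samples read 2.92 and the deficient ones 3.22 to 3.60, a difference of 0.53 (SE 0.19, unadjusted limma p = 0.026, adjusted p = 0.9996). Of all 18193 genes, 737 passed the same unadjusted threshold in marrow. These Chrna7 values lie at a signal where 25% of all values lie below 3.39. The other members differed by -0.27 (Chrna4) to 0.26 (Chrna5). The sign turned without wild type marrow replicate 1 for Chrna3 and Chrna4, which went from -0.23 to 0.06 and from -0.27 to 0.10 without it. Without wild type marrow replicate 2, Chrnb2 went from -0.07 to 0.27, and the differences of Chrna1 (-0.0123) and Chrna5 (-0.0021) also turned. Chrna3 turned as well without deficient marrow replicate 2 (0.03), and Chrnb2 without deficient marrow replicate 3 (0.0195).

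The genotype difference was also not shown to differ between tissues for any member. The interaction was 0.49 for Chrna3 (SE 0.40), 0.44 for Chrna4 (SE 0.23) and -0.38 for Chrna7 (SE 0.44), with limma adjusted p from 0.677 to 0.9999 over the 7 members, and 0.319% of all genes were called.

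**Figure D3:**
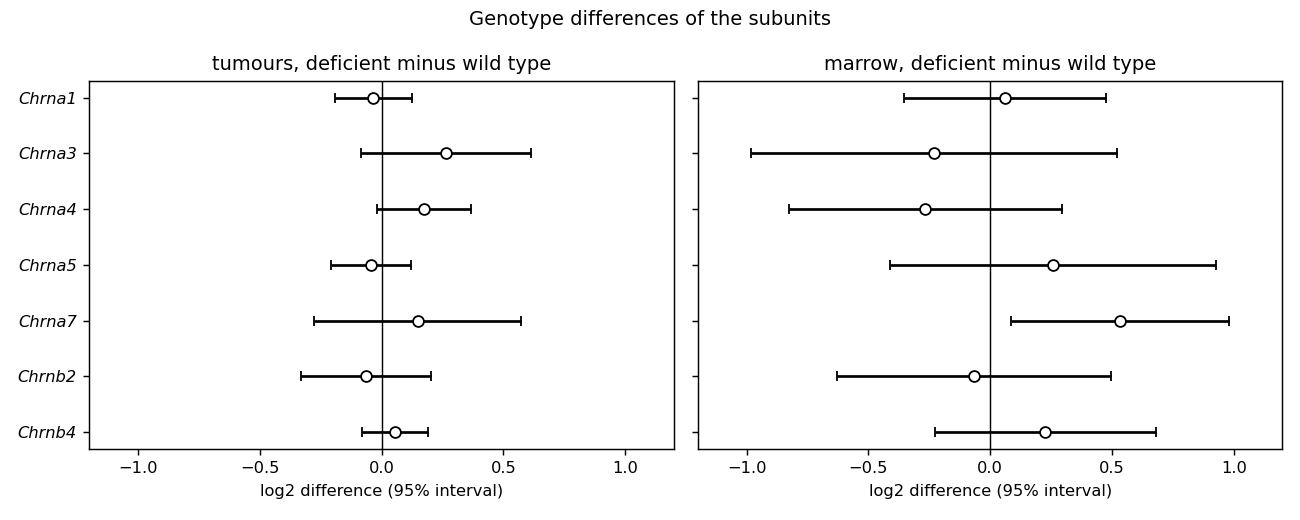
Log2 difference, deficient minus wild type caspase-8 (horizontal axis), with its 95% interval for each subunit in tumours (left) and marrow (right). No member passed an adjusted p of 0.05. The tumour estimates lie between -0.06 and 0.26, and the Chrna7 estimate in marrow, 0.53, is the one whose interval does not cross 0.

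The muscle subunit Chrna1 was read against the tumours that contained skeletal muscle transcripts. In 3 tumours, wild type 3, wild type 7 and deficient 11, the mean of 22 skeletal muscle markers was 6.98, 6.02 and 7.95, against 3.82 to 4.53 in the other 21 tumours and 4.14 to 4.30 in marrow. Acta1, the actin of the skeletal muscle thin filament, read 10.5, 9.49 and 11.5 there and 4.97 to 6.82 in the others, and 17 of the 22 markers lay above every other tumour in all 3.

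Chrna1 showed little of this contrast. It read 3.52 in wild type tumour 3, 3.34 in wild type tumour 7 and 3.80 in deficient tumour 11, against 2.99 to 3.49 with a median of 3.27 in the other 21. Deficient tumour 11 and wild type tumour 3 were the highest and next highest of the 24 tumours, and wild type tumour 7 ranked 10. All marrow samples, at 3.45 to 3.68, lay within or above the span of the other tumours. The 1 Chrna1 probe set read around the low-signal guide of 3.39. A low Chrna1 transcript level and an unresponsive probe set therefore cannot be told apart.

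The other muscle subunits also showed far smaller differences than Acta1. In wild type 3, wild type 7 and deficient 11, in this order, Chrnd ranked 8, 3 and 6 of 24 and Chrng 4, 5 and 2. These Chrnd and Chrng values lay 0.09 to 0.28 above the median of the other tumours. Chrne ranked 14, 2 and 1 and Chrnb1 16, 9 and 1 in the same order, reading 4.49 and 3.94 in deficient tumour 11. Of Chrnb1, Chrnd, Chrne and Chrng, none lay above every other tumour in all 3. Of 8 neuromuscular junction genes, none did either, and Musk, the kinase that clusters endplate receptors, was highest in wild type tumour 3 at 3.95. Among 6 myogenic factors, Myf6, which is abundant in mature fibres, did so at 3.76, 3.81 and 4.76, against at most 3.29 elsewhere. Of the members that were high in tumours, Chrna3 was lowest of all 24 in wild type tumour 7 (5.81) and ranked 13 and 17 in the other two.

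Within the 21 other tumours, Chrna1 and the muscle marker mean correlated at r = 0.19 (permutation p = 0.412) and rho = 0.11 (permutation p = 0.620). Without the 2 tumours farthest from the median marker mean, r was -0.41, and within the lower-numbered and higher-numbered tumours it was -0.67 and 0.52.

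**Figure D4:**
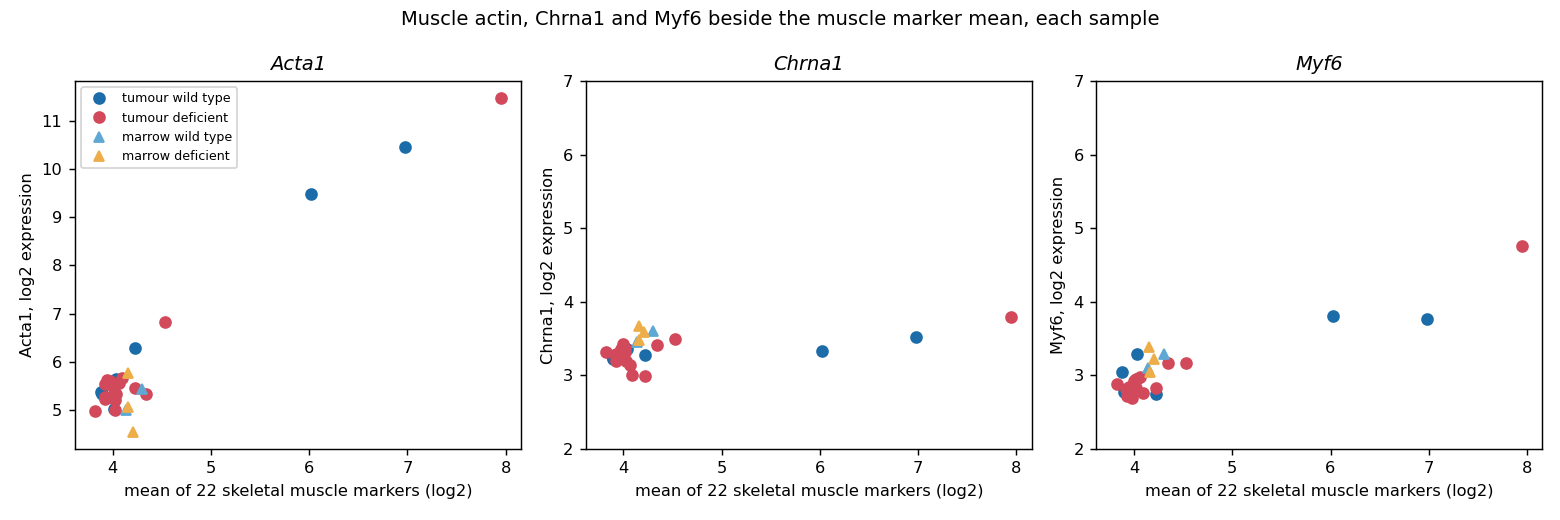
Log2 expression of Acta1, Chrna1 and Myf6 (vertical axes) beside the mean of 22 skeletal muscle markers (horizontal axis) in each of 24 tumours and 5 marrow samples. The 3 tumours at marker means of 6.02, 6.98 and 7.95 reach 9.49 to 11.5 for Acta1, and 3.34 to 3.80 for Chrna1 against 2.99 to 3.49 in the other tumours. Acta1 is itself part of the marker mean.

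Across tumours, the 3 subunits that were high in tumours varied more than most genes. The SD over 24 tumours was 0.48 for Chrna7, 0.41 for Chrna3 and 0.29 for Chrnb2, against a median of 0.19 over all genes. Of 21 pairs of members, 1 passed an unadjusted permutation p of 0.05, Chrna7 with Chrnb2 (r = 0.47, permutation p = 0.0221, adjusted p = 0.465, rho = 0.44), and none passed after adjustment. Its r was 0.35 without the 2 farthest tumours, 0.56 among lower-numbered and 0.41 among higher-numbered tumours. Chrna5, Chrna3 and Chrnb4 are consecutive protein-coding genes on chromosome 9, and their pairs correlated at 0.10 (Chrna3 and Chrna5), -0.00 (Chrna3 and Chrnb4) and -0.05 (Chrna5 and Chrnb4).

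Chrnb2 was higher in tumours with a higher mean of the chromaffin or the sympathoadrenal marker list, and lower where the macrophage marker mean was higher. Its r was 0.75 with the mean of 9 chromaffin markers (permutation p = 4e-05, adjusted p = 0.00054), and rho was 0.75 (adjusted p = 0.0019). With the mean of 12 sympathoadrenal markers r was also 0.75 (permutation p = 4e-05, adjusted p = 0.00054), and rho was 0.61 (adjusted p = 0.022). These lists share Chga, Chgb and Slc18a1. Of the 9 chromaffin markers, 5 were called higher in tumours than in marrow and 4 were not called. Their SD over tumours was largest for Npy (1.37), Scg2 (1.11) and Cartpt (0.95), against 0.28 for Pnmt. The mean of this list is therefore not a measure of chromaffin cells alone. With 8 macrophage markers r was -0.65 (permutation p = 0.00041, adjusted p = 0.0037), and rho was -0.63 (adjusted p = 0.016). Without the 2 farthest tumours these became 0.70, 0.67 and -0.56. Among lower-numbered and higher-numbered tumours, r was 0.62 and 0.83 for the chromaffin list, 0.89 and 0.62 for the sympathoadrenal list, and -0.84 and -0.59 for the macrophage list.

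These were 3 of 27 relations computed between Chrna3, Chrna7, Chrnb2 and 9 marker lists, a set chosen after seeing the data, and the other 24 did not pass by r. By rho alone, Chrnb2 also passed with 6 smooth muscle markers (rho = -0.54, permutation adjusted p = 0.047). Chrna3 had r = 0.43 and Chrna7 r = 0.42 with the sympathoadrenal list (permutation adjusted p = 0.126 for both). The part of macrophage or stromal content in the Chrnb2 values was not tested.

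The genes whose values followed each variable member most closely were named by the highest r over 24 tumours. For Chrnb2 they were Mef2d (0.90), Mex3a (0.89), Rcan3 (0.88), Slc25a44 (0.88) and Irgq (0.87). For Chrna7 they were Ptbp2 (0.67), Lrba (0.66), Pard6b (0.66), Lysmd1 (0.65) and Phtf1 (0.64). For Chrna3 they were Tpbg (0.74), Asb15 (0.73), B3gnt2 (0.72), Carlr (0.71) and Ky (0.70), and for Chrna4 they were Iqsec1 (0.74), Ipo13 (0.73), Hrh3 (0.72), Pip4k2b (0.71) and Prss51 (0.70). These genes were picked as the highest of all genes, so their r is a description. The Chrna4 values rest on 1 probe set of low signal, 3.38 to 4.20 in tumours. It correlated with the other Chrna4 probe sets at 0.08 and 0.18 across tumours. Of the genes named for Chrna3, Asb15 and Carlr had low tumour means of 2.83 and 2.78.

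Many of the genes most like Chrnb2 and Chrna7 lie on chromosome 3. Of the 100 genes of highest r, 29 for Chrnb2 and 44 for Chrna7 are on chromosome 3, which holds 5.08% of the genes, against 2 to 3 for the other 5 members. Chrnb2 itself is on chromosome 3, while Chrna7 is on chromosome 7. The 80 measured genes nearest to Chrnb2 had a median r of 0.31 with it (0.33 and 0.41 among lower-numbered and higher-numbered tumours). The median r was 0.16 over the 920 other genes of chromosome 3 and -0.06 over all genes. Of the 80 neighbours, 52 had an r above 0.

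The level of chromosome 3 as a whole, the mean of its 920 other genes after centring each gene, minus that of the other chromosomes, split the tumours. It was -0.08 to -0.01 in 18 tumours and 0.06 to 0.23 in 6, wild type 2, 6 and 7 and deficient 2, 6 and 9. The 5 highest Chrnb2 values, 7.11 to 7.47, were all in these 6 tumours, and deficient tumour 2, the remaining one of the 6, read 6.89. Chrna7 in them ran from 6.18 to 7.15 and included 4 of its 6 highest values. Within the 18 tumours, r with the chromosome 3 level was -0.27 for Chrnb2 and 0.27 for Chrna7, and within the 6 it was -0.06 and 0.07. Of 60 relations between these 3 genes and 20 chromosome levels, also chosen after seeing the data, 4 passed by r and none by rho: these 2 genes with chromosome 3, and negatively with chromosome 19 (r = -0.73 for Chrnb2 and -0.58 for Chrna7, permutation adjusted p = 0.0048 and 0.041). DNA copy number was not measured here.

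**Figure D5:**
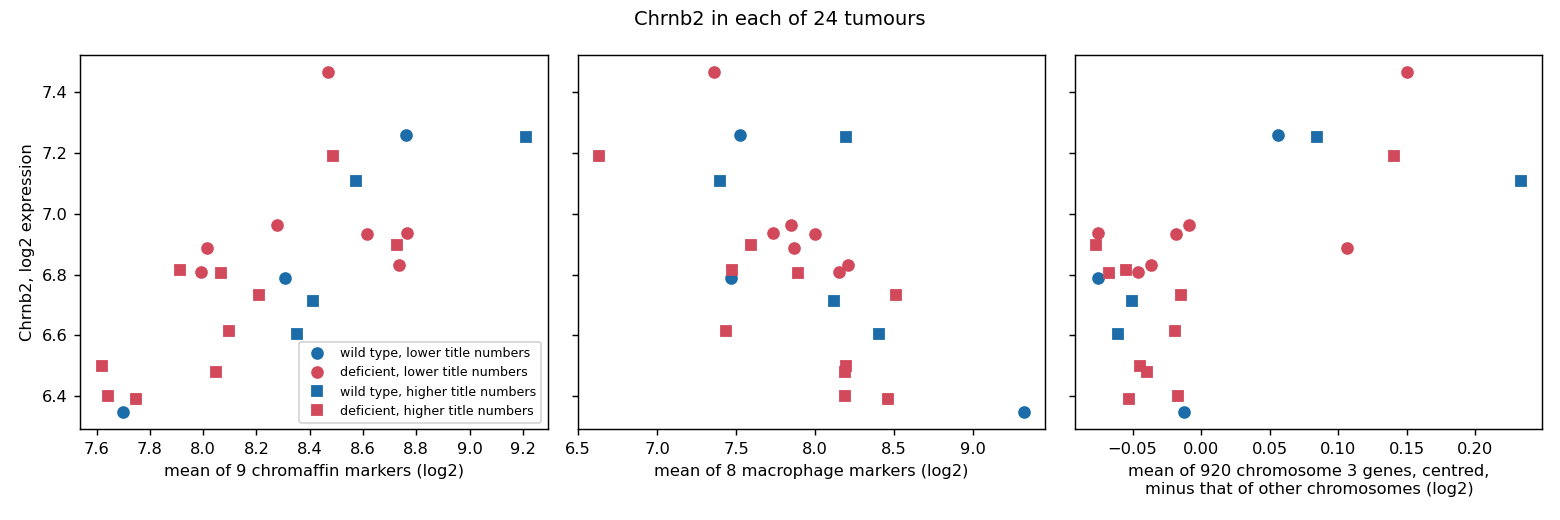
Chrnb2 log2 expression (vertical axis) in each of 24 tumours beside the mean of 9 chromaffin markers, the mean of 8 macrophage markers and the chromosome 3 level (horizontal axes, log2). Chrnb2 is higher where the chromaffin marker mean is high (r = 0.75) and lower where the macrophage marker mean is high (r = -0.65). The 5 tumours at 7.11 or above all have a chromosome 3 level above 0.

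Among other genes of the pathway, the nicotinic receptor chaperones Tmem35a and Ric3 were higher in tumours. Of 11 assembly factors and Ly6-type modulators, 2 were called higher in tumours than in marrow, 5 lower and 4 not, against 76.4% of all genes called, 34.2% higher and 42.2% lower. With these shares as background, the counts of this list and of the lists that follow are descriptions, and nothing is read from them about the lists. The 2 higher ones were Tmem35a (also called NACHO), a chaperone needed for alpha7 assembly, at 3.45 (SE 0.24, limma adjusted p = 1.47e-13), and Ric3, another nicotinic receptor chaperone, at 2.14 (SE 0.13, adjusted p = 2.37e-15). The lower ones included Lypd6b at -1.83, Ly6e at -1.63, Psca at -0.45 and Unc50 at -0.365. With quantile normalization again Lypd6 was also called higher (0.50, limma adjusted p = 0.0084), and the counts were 3 higher, 5 lower and 3 not. With each array centred on its median they were 2, 6 and 3.

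Of the other neuronal subunits Chrna2, Chrna6, Chrna9 and Chrnb3, only Chrnb3 was called, at -0.32 (limma adjusted p = 0.0057). The other muscle subunits were all called lower, Chrnb1 at -0.28, Chrnd at -0.39, Chrne at -0.42 and Chrng at -0.36, with mean levels of 3.22 to 4.95 in tumours. With quantile normalization again Chrnb3 (-0.13) and Chrnb1 (-0.0747) lost their calls, and the other 3 muscle subunits kept theirs. With each array centred on its median all 4 neuronal and all 4 muscle subunits were called lower, Chrna2 at -0.48, Chrna6 at -0.43, Chrna9 at -0.49 and Chrnb3 at -0.61. Of 8 neuromuscular junction genes, Agrn (1.58), whose matrix protein starts receptor clustering, and Rapsn (1.03), which anchors the receptor, were called higher. The 5 called lower were Erbb3 (-1.23), Nrg1 (-0.86), Lrp4 (-0.59), Colq (-0.41) and Musk (-0.21), and Dok7 at 0.14 was not called. Of the 5, Musk (-0.21) lost its call with quantile normalization again (-0.01).

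Of 6 genes of acetylcholine synthesis, transport and breakdown, 1 was called higher, 3 lower and 2 not. Prima1, the membrane anchor of acetylcholinesterase, was higher in tumours by 2.78 (SE 0.14), while Ache itself was at -1.63 (SE 0.12). Chat, the synthetic enzyme, was at -0.20 and Slc18a3, the vesicular transporter, at -0.34, both called lower at levels of 3.12 and 3.16 in tumours. Of 3 muscarinic receptors, Chrm3 was called lower at -0.32. Chat (-0.00), Slc18a3 (-0.13) and Chrm3 (-0.12) lost their calls with quantile normalization again. With each array centred on its median, Slc5a7 (-0.49), Chrm1 (-0.39) and Chrm4 (-0.40), named here after their values were seen, were called lower too. No gene of these lists was called between genotypes: in tumours the smallest unadjusted p values were those of Slc5a7, the choline transporter (0.23, unadjusted limma p = 0.010), and Bche (0.55, unadjusted p = 0.048).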

How the data were processed

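The authors deposited log2 expression values made with RMA in Partek 6.6, per the submitters' processing notes, from total RNA labelled by an Affymetrix protocol, per the labels' protocols. The sources used here do not say if the arrays were processed as 1 set. Of 45101 probe sets, 64 array controls were left out. The platform annotation gives 34945 probe sets 1 symbol, 932 several and 9160 none. Each gene took its probe set of highest mean, without a filter on signal. Arrays have no read depth, and the number of samples limits precision.

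R 4.3.3 with limma 3.58.1 gave the comparisons over all 18193 genes, two-sided, with Benjamini-Hochberg adjustment and a threshold of 0.05: genotype within tumours, genotype within marrow, and, in a model of 4 groups, tumours minus marrow with genotypes weighted equally and the interaction. Correlations used 100000 permutations. The fits were tested on simulated data. Samples were numbered in accession order. A tumour counted as having muscle transcripts where its marker mean lay more than 1 (log2) above the tumour median. Named genes were the members and the other nicotinic subunits. From each pathway list they were those that passed (up to 6 by smallest p) or the 2 of smallest p. Added to these were the 5 genes most like each member whose tumour SD exceeded the median. Some genes, such as Musk and Dok7, were named beyond this rule. The members and lists were chosen with earlier results of these data known. Alternatives were other probe set rules, normalizations, variance models and sample subsets. Promoter sequences came from RefSeq.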

Additional observations from a re-analysis of the deposited data

How the results depend on the processing

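The rises of Chrna3, Chrna7 and Chrnb2 in tumours kept their direction and call under every alternative run, with log2 differences of 2.12 to 3.01, 1.43 to 3.14 and 0.66 to 2.54, and of 2.77 to 3.06, 2.98 to 3.09 and 2.33 to 2.67 when each sample was left out in turn. The 6 members called between tissues became 3 with quantile normalization again and 3 with a mean log2 of at least 5, where only 3 members were tested, and 4 to 6 when each sample was left out. Array weights lost Chrna1 (-0.21) and Chrna4 (-0.23), and the mean of probe sets lost Chrna4 (-0.19) and Chrnb4 (-0.04). Chrna4 also lost its call in the 2-group fit (-0.18), and its difference ran from -0.43 to -0.06 when each sample was left out. With arrays centred on the median, the median of all genes moved from -0.10 to -0.39 and Chrna5 was called too (-0.34). Chrna5 reversed to 0.0915 with quantile normalization again, and ran from -0.18 to 0.0798 over samples left out. No member was called between genotypes under any alternative run. Signs reversed there for Chrnb4 with the mean of probe sets (-0.0067 in tumours, -0.0356 in marrow, 0.029 for the interaction), for Chrnb2 (0.18), Chrna1 (0.0593) and Chrna7 (-0.11) within 1 title number range, and for the Chrnb2 interaction with the mean of probe sets (-0.0119), quantile normalization (-0.0052) and array weights (-0.0633). With samples left out in turn, tumour differences ran from -0.15 to 0.0006 for Chrnb2 and from -0.0941 to 0.0291 for Chrna5. Marrow differences ran from -0.0123 to 0.13 for Chrna1, -0.52 to 0.0606 for Chrna3, -0.64 to 0.10 for Chrna4, -0.0021 to 0.52 for Chrna5 and -0.41 to 0.27 for Chrnb2. The Chrnb2 interaction ran from -0.34 to 0.34. The correlation of Chrna1 with muscle markers was 0.45 with the median of markers (permutation p = 0.0444), -0.67 in the lower title numbers, and -0.12 to 0.0887 without deficient tumour 15 or 13. No pair of members passed adjustment under any alternative run. The cause of these changes was not tested. No paired analysis was possible because the labels do not say which samples, if any, came from the same mouse. Signal near the low end of the table limits the tissue differences of Chrna1, Chrna4, Chrna5 and Chrnb4.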
